A study of Mus musculus with 12 samples.

Results

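The genes described here encode subunits of the mitochondrial respiratory chain and of ATP synthase. They were chosen by gene symbol from the platform annotation: symbols beginning with Nduf and a subunit letter and number (complex I), Sdha to Sdhd (complex II), Uqcr (complex III), Cox4 to Cox8 with an isoform letter (complex IV) and Atp5 (ATP synthase, here called complex V). Of 19057 genes with a single symbol on the array, 76 matched. A gene was kept where a probe was detected (detection value above 0.99) on at least 4 of the 12 arrays, which held for 63 of the 76 and for 8100 genes in all. By complex, 30 of 35 genes were kept for complex I, 2 of 4 for complex II, 6 of 7 for complex III, 10 of 14 for complex IV and 15 of 16 for complex V. The 13 without a kept probe were Ndufb2 and Ndufb9, each detected on 2 arrays, and Ndufb4, Ndufb11, Ndufs1, Sdha, Sdhd, Uqcrfs1, Cox6b2, Cox7b2, Cox8b, Cox8c and Atp5md, detected on none. For these, little RNA and a probe that does not respond cannot be told apart. The symbol rule also takes in Ndufs5-ps, a pseudogene entry. It places Ndufa4 with complex I by name, although its protein is now regarded as a complex IV subunit, and Cox7a2l, which encodes a factor of supercomplex assembly, with complex IV.

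Complexes I and II pass electrons from NADH and succinate to ubiquinone, complex III passes them on to cytochrome c, and complex IV (cytochrome c oxidase) hands them to oxygen. Complexes I, III and IV pump protons, and ATP synthase uses the returning protons to make ATP. Several complex IV subunits exist as isoform pairs, with one form found widely and the other chiefly in heart and skeletal muscle, as for Cox6a1 and Cox6a2 or Cox7a2 and Cox7a1.

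Illumina mouse bead arrays measured RNA of 3 groups of mouse lymphocytes with 4 arrays each: DN3 cells (labelled parental T cells, precursors that lack CD4 and CD8), ITNK cells (T-to-natural-killer cells derived from DN3 cells) and LAK cells (natural killer cells expanded with IL-2). All 12 samples carry one protocol text, so which of its steps apply to DN3 and LAK cells is not given: thymocytes or splenocytes of Cre-ERT2; Bcl11b flox/flox mice, whose Cre recombinase is switched on by tamoxifen, received 1 µM 4-hydroxytamoxifen for 48 h in medium with 5 ng/ml IL-7 and 5 ng/ml Flt3 ligand. Sorted DN3 thymocytes, named there as Bcl11b CKO/CKO and Bcl11b CKO/+, were then grown on OP9-DL1 stromal cells with 100 ng/ml IL-2 until RNA was taken 14 days after the treatment. The strain labels differ by group in a run of numbers (C57B6 for ITNK, C57B7 for DN3, C57B8 for LAK) and were not used. Nothing in the labels tells whether the replicates are separate animals or cultures, so every p-value reflects the spread of these arrays alone, which may be technical.

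Each array detected between 11814 and 13141 probes (26.1% to 29%), and arrays of a group correlated with each other at a median of 0.985 to 0.987. The array numbers in the titles give 2 slides: the LAK arrays sat on slide 1 beside ITNK 1 and 2, the DN3 arrays on slide 2 beside ITNK 3 and 4. LAK and DN3 therefore never shared a slide, and slide and group cannot be told apart for that pair except through the ITNK arrays. Bcl11b averaged 11.77 in DN3, 8.59 in ITNK and 5.76 in LAK on the log2 scale. Among natural killer markers, 10 of 12 measured were higher in ITNK than in DN3 and 2 did not pass. Of these 12, 7 were detected on no DN3 array. Their probes were kept through the ITNK and LAK arrays, so that count was partly set by the filter. Among DN3 markers, 8 of 11 were lower and 3 did not pass, and 1 of the 11 was detected on no ITNK array. Of all genes in that comparison, 23.5% were higher and 28.2% lower. The 12 measured stromal markers had a summed level of 17300 to 21100 in DN3, 14600 to 15800 in ITNK and 7710 to 8810 in LAK. In LAK 11 of the 12 were detected on no array, so the sum there rests almost wholly on the remaining marker. Each marker's deviation from its own mean over all arrays had a median of 0.42 to 1.65 in DN3. That median was -0.01 to 0.45 in ITNK and -1.17 to -1.12 in LAK. The part of stromal RNA in the differences below was not tested. In these bulk samples, fewer cells of a type and less RNA per cell cannot be told apart.

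All levels below are log2 normalized intensities of the brightest kept probe of a gene, and all differences are log2 differences between group means from limma, with Benjamini-Hochberg adjustment over 8100 genes and a threshold of 0.05. The 3 comparisons share arrays pairwise, so their values are given side by side and not as independent results.

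Between ITNK and DN3 cells, most of the 63 genes did not pass the test. In ITNK cells 10 were higher (15.9%) and 8 lower (12.7%), where 23.5% of all genes were called higher and 28.2% lower. In either direction 18 of the 63 passed (28.6%), beside 51.7% of all genes. The median difference was 0.03, and that of all genes was -0.04. By complex, 2 of 30 genes were higher and 3 lower in complex I, 1 of 2 was higher in complex II, 2 of 6 were lower in complex III, 4 of 10 were higher and 2 lower in complex IV, and 3 of 15 were higher and 1 lower in complex V. One gene of each direction changed at least 2-fold, both from complex IV: Cox7a1 was higher and Cox6a2 lower, where 13% of all genes passed with at least that fold. On 10 members every ITNK array lay above every DN3 array and on 9 below, beside 21.9% and 26% of all genes, or 47.8% in either direction. The split of calls depended on the normalization: with arrays scaled to a common median in place of quantile normalization, 27 members were higher and 1 was lower, with a median of 0.22, where 24.3% of all genes were higher and 26.7% lower. Under that scaling the genes outside the list at the same level shifted too, those with a mean level of 10 to 12 from a median of 0 to 0.20.

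**Figure D1:**
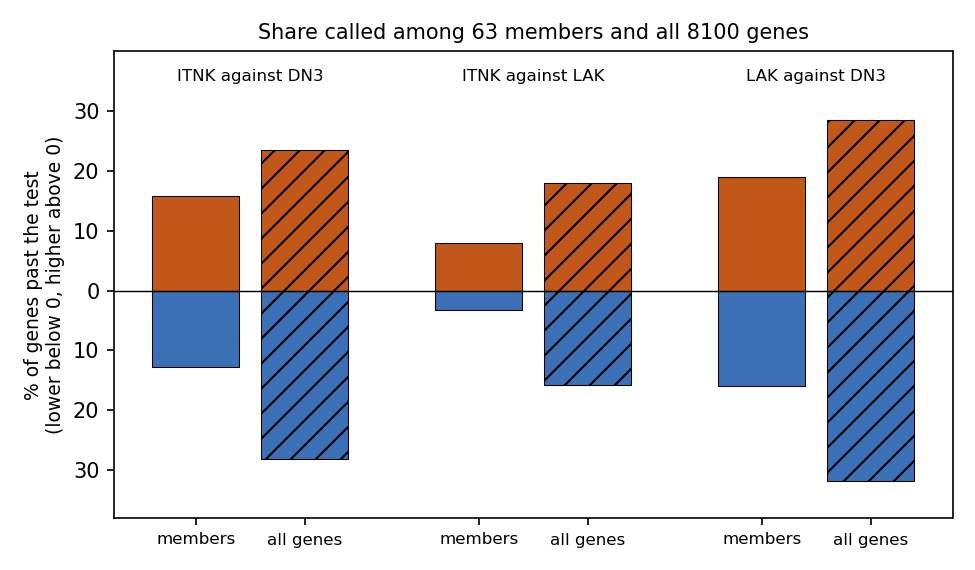
The percentage of genes past the test (vertical axis, higher above 0 and lower below) among the 63 members and all 8100 genes in each of the 3 comparisons. In ITNK against DN3, 15.9% of members were higher and 12.7% lower, beside 23.5% and 28.2% of all genes.

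Between ITNK and LAK cells, 5 members were higher in ITNK (7.94%) and 2 lower (3.17%), beside 18% and 15.7% of all genes. In either direction 7 passed (11.1%), beside 33.7%. No member both passed by limma and differed 2-fold, beside 8.91% of all genes. The groups did not overlap for 7 members higher and 7 lower in ITNK, beside 17.1% and 14.7% of all genes, or 31.8% in either direction. The median difference was 0, and that of all genes was -0.01. The 5 were Ndufa4, Uqcr10, Uqcr11, Cox6a1 and Atp5j2, and the 2 were Ndufs7 and Atp5d. With median scaling 1 was higher and 4 were lower, beside 17.8% and 15.5% of all genes. No member passed in every one of the 22 alternative settings. Within slide 1, with 2 ITNK arrays, limma called none of the 63 in either direction, where 22.9% of all genes were called. The lack of calls there does not show that the groups were equal. The count of lower members was 1 without LAK 1 or without ITNK 4, 4 without LAK 3 and 5 without ITNK 1. Of all genes, 14.2%, 14.5%, 14.8% and 14% were lower, in that order.

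Between LAK and DN3 cells, 12 members were higher in LAK (19%) and 10 lower (15.9%), beside 28.6% and 31.9% of all genes. In either direction 22 passed (34.9%), beside 60.5%. The groups did not overlap for 14 members higher and 12 lower in LAK, beside 26.4% and 30% of all genes, or 56.4% in either direction. The median difference was 0.06, and that of all genes was -0.02. Again Cox7a1 was the only member at least 2-fold higher and Cox6a2 the only one at least 2-fold lower, beside 20% of all genes past that fold. Under median scaling the split became 27 higher and 3 lower, beside 29.2% and 30.3% of all genes. With the slide as a block, 4 were higher and 6 lower, beside 19.8% and 21.2%, and the median turned to -0.06.

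**Figure D2:**
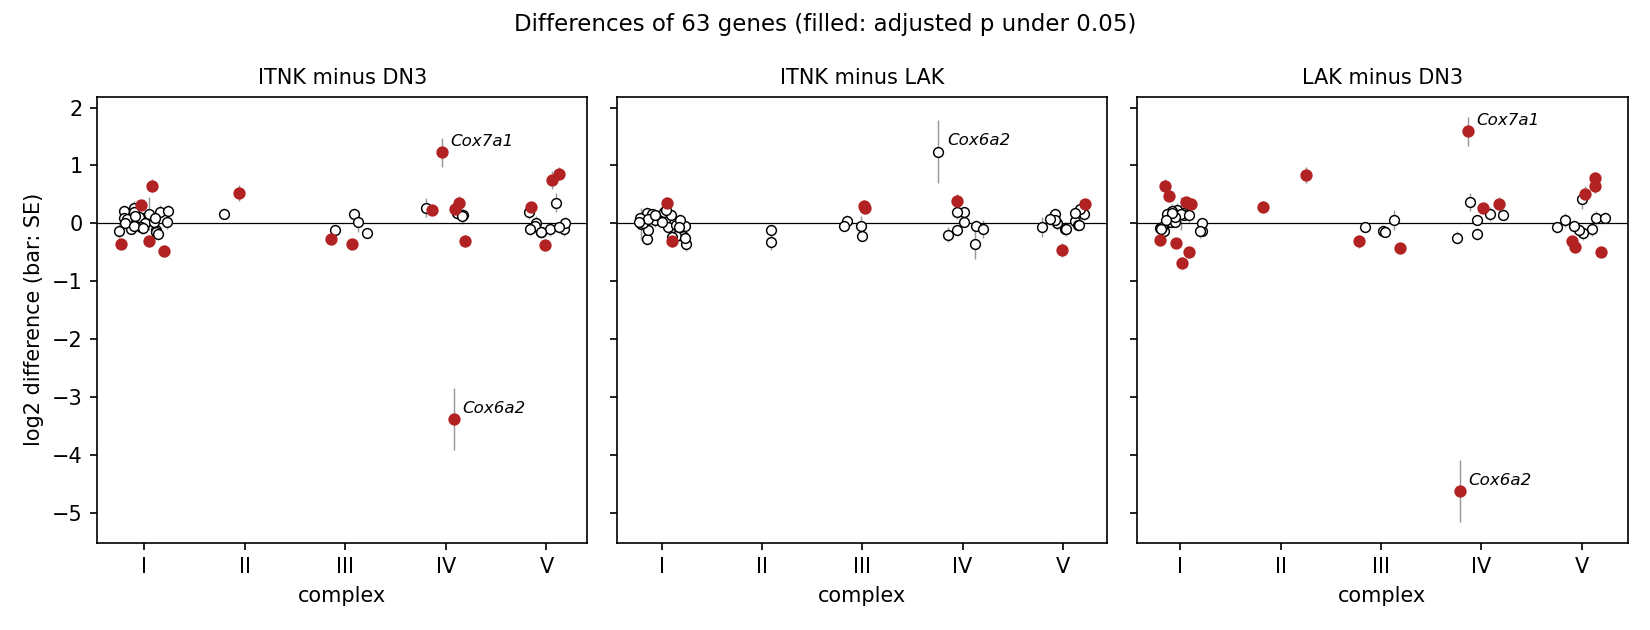
Log2 difference (vertical axis, bars are standard errors) of each of the 63 genes by complex (horizontal axis) in each comparison, filled where the adjusted p was under 0.05. Most points lie near 0, and Cox6a2 at -3.38 and Cox7a1 at 1.23 stand apart in ITNK against DN3.

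Cox6a2, the muscle isoform of cytochrome c oxidase subunit 6a, varied most. Its level was 8.63, 10.79, 10.21 and 9.30 on the DN3 arrays, 5.88, 7.74, 5.18 and 6.59 on the ITNK arrays, and 4.58, 5.39, 6.03 and 4.45 on the LAK arrays. Every DN3 array was above every ITNK and LAK array, while ITNK and LAK overlapped. In LAK the probe was detected on 2 of 4 arrays. Relative to DN3, the level in ITNK fell by 3.38 (SE 0.54, adjusted p = 0.000146 by limma, 5.3e-05 to 0.0011 over the alternatives). With the slide as a block that difference was -3.85. The LAK minus DN3 difference was -4.62 (adjusted p = 5.16e-06 by limma, 2.51e-06 to 0.000519 over the alternatives). ITNK stood 1.24 above LAK, which did not pass (adjusted p = 0.0975 by limma, 0.0375 to 0.283 over the alternatives). It passed without ITNK 3, at 1.62. The array carried 1 kept probe for this gene.

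Because Cox6a2 is known from muscle, and other cells in a culture could carry it, markers were set beside it. Of 16 muscle markers on the array 13 were not detected, and the 3 measured had a summed level of 149 to 162 in DN3, 134 to 151 in ITNK and 108 to 133 in LAK. Of these 3, 1 was higher and 2 lower in ITNK than in DN3. In DN3 1 of the 3 was detected on no array, and in ITNK likewise 1. Of 13 plasmacytoid dendritic cell markers on the array 9 were measured, and their summed level was 2510 to 2840 in DN3, 1130 to 1440 in ITNK and 1740 to 2680 in LAK. Of these 9, 2 were higher and 2 lower in ITNK than in DN3, beside 23.5% and 28.2% of all genes. Their part in the Cox6a2 difference was not tested.

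Over the 12 arrays the genes most like Cox6a2 by Pearson correlation, out of all genes kept, were Bmf (0.974), Wdr33 (0.972), Stx1a (0.962), Rpl22 (0.961) and Odf3b (0.961). These values describe arrays that fall into 3 groups and share slides. Each of these genes had its highest mean in DN3, as Cox6a2 did. For Bmf the means were 6.85 in DN3, 5.74 in ITNK and 5.18 in LAK.

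Cox6a1, the widely expressed isoform of the same subunit, had levels of 13.06, 12.96, 12.91 and 12.79 in DN3, 12.97, 12.98, 13.26 and 13.07 in ITNK, and 12.91, 12.61, 12.54 and 12.65 in LAK. ITNK overlapped DN3 and lay wholly above LAK. The ITNK minus DN3 difference of 0.14 did not pass (adjusted p = 0.307 by limma, 0.00536 to 0.597 over the alternatives). The ITNK minus LAK difference of 0.39 passed (adjusted p = 0.0131 by limma, 0.00465 to 0.177). That call was lost with the slide as a block (0.29), within slide 1 (0.29) and under median scaling (0.28). A second probe detected on all arrays gave 0.22, which did not pass (adjusted p = 0.099 by limma). The LAK minus DN3 difference of -0.25 did not pass (adjusted p = 0.0601 by limma, 0.0176 to 0.804). The last passed without LAK 1, ITNK 3 or DN3 4 and turned to 0.15 under median scaling.

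Cox7a1, the muscle isoform of subunit 7a, ran the other way. Its level was 6.14, 5.38, 5.49 and 5.91 in DN3, 7.24, 6.92, 6.54 and 7.15 in ITNK, and 6.87, 7.23, 8.07 and 7.10 in LAK. All DN3 arrays lay below all ITNK and LAK arrays, and ITNK and LAK overlapped. Relative to DN3 it rose by 1.23 in ITNK (SE 0.25, adjusted p = 0.000811 by limma, 9.62e-05 to 0.011 over the alternatives) and by 1.59 in LAK (adjusted p = 6.9e-05, 5e-05 to 0.0262). Between ITNK and LAK the difference of -0.36 did not pass (adjusted p = 0.293).

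The widely expressed Cox7a2 had levels of 5.14, 5.70, 5.63 and 5.42 in DN3, 5.71, 5.77, 6.05 and 5.81 in ITNK, and 5.60, 5.62, 5.58 and 5.74 in LAK. ITNK lay above DN3 on every array by a narrow margin. The difference of 0.36 passed (adjusted p = 0.0261 by limma) but not without ITNK 3, DN3 1 or DN3 4, where adjusted p was 0.0622 to 0.0898. It was also lost without background correction (0.16), under median scaling (0.29) and within slide 2 (0.45). Cox7a2l fell by 0.30 in ITNK against DN3 (adjusted p = 0.0275 by limma), a call that was lost without ITNK 3, ITNK 4, DN3 2, DN3 3 or DN3 4 (0.0562 to 0.0871), under median scaling (-0.12) and with the authors' values (-0.21). Cox6b1, which bridges the complex IV dimer, rose by 0.25 (adjusted p = 0.0264 by limma), and did not pass without ITNK 4, DN3 1, DN3 3 or DN3 4 (0.0571 to 0.07) or with the replicate block. A second Cox6b1 probe detected on all arrays gave 0.40, which passed (adjusted p = 0.00202 by limma). In LAK against DN3 this second probe gave 0.32, which passed (adjusted p = 0.00776 by limma). The brighter probe gave 0.06 there and did not pass. Cox6c, another small subunit, rose by 0.33 in LAK against DN3 (adjusted p = 0.0436 by limma). Its difference was -0.18 with the slide as a block, and the call was lost without LAK 1, 2 or 3, or DN3 1, 3 or 4 (0.0661 to 0.0974). On the ITNK arrays Cox6c was 10.59 and 10.44 on slide 1 and 10.04 and 9.98 on slide 2.

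**Figure D3:**
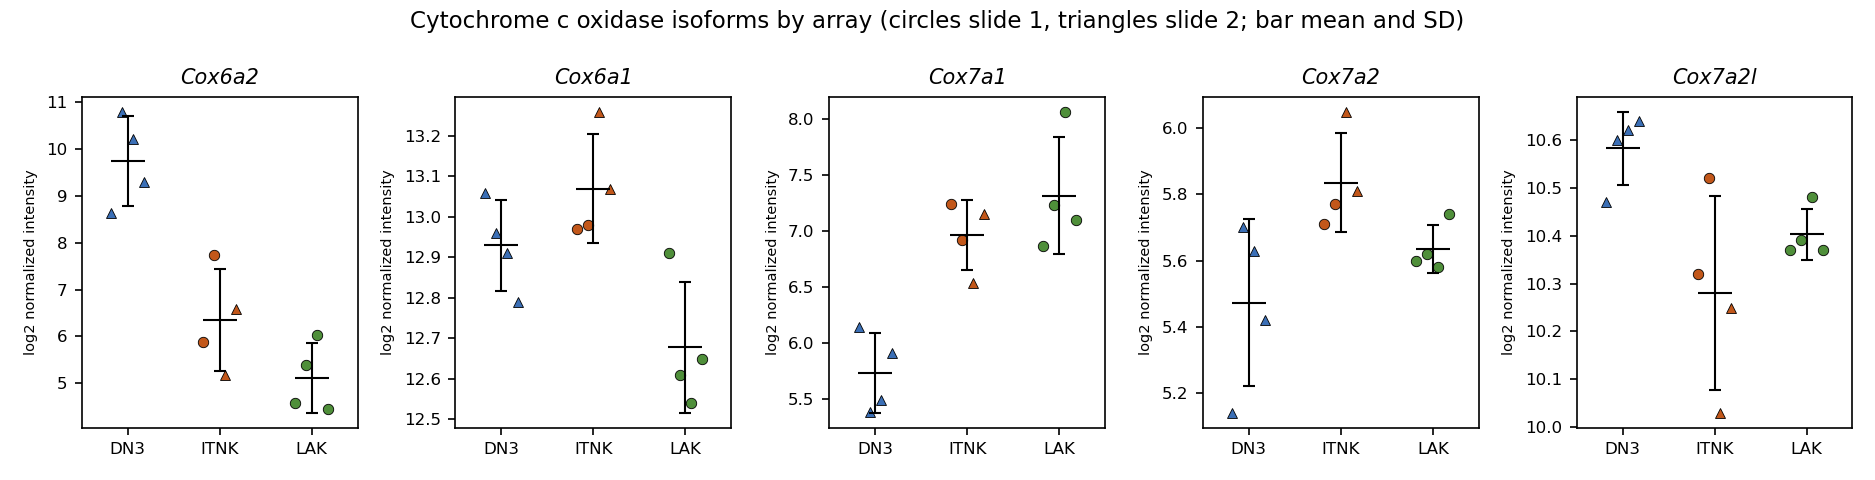
Log2 normalized intensity (vertical axis) of complex IV isoform genes on each array, by group. Cox6a2 is highest on the 4 DN3 arrays (8.63 to 10.79), whereas Cox7a1 is lowest there (5.38 to 6.14).

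The 250 bases before the start of the isoform genes are shown for Cox7a1 and Cox6a1, which encode a muscle and a widely expressed subunit, from RefSeq on GRCm38.p6, with capitals for motif matches. Cox7a1 lies at chr7:30183921-30184170 on the plus strand and Cox6a1 at chr5:115348959-115349208 on the minus strand.
Cox7a1: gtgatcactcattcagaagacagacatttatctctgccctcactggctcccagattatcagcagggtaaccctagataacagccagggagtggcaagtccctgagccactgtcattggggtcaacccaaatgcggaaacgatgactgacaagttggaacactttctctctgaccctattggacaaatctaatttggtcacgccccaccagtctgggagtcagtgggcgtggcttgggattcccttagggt
Cox6a1: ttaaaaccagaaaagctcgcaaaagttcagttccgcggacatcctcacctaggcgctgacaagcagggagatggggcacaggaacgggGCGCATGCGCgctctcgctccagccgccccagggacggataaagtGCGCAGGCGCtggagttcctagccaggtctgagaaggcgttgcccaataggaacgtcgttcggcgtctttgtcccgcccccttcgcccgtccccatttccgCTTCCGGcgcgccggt
In the Cox6a1 window the capitals mark 2 matches to the NRF1 motif, at positions -162 to -153 and -117 to -108 from the start, and 1 to the ETS motif on the other strand at -16 to -10. The Cox7a1 window held none of the 4 motifs searched.

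Those motifs were searched on both strands in the same window for the 54 of 63 members with a RefSeq entry and for 27025 genes in all. The NRF1 motif, the site of nuclear respiratory factor 1, lay before 9 members (16.7%), beside 4.23% of all genes. CCGGAAG, an ETS core, lay before 11 (20.4%), beside 7.83%. TCAAGGTCA, an ERR site, lay before 1 (1.85%), beside 0.422%, and CAGCTG, an E-box searched after the values were seen, before 4 (7.41%), beside 14.7%. Median GC content was 56% in the members' windows and 52.4% in all. These are matches of letters, with no measure of binding.

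Among complex V genes, Atp5pb encodes subunit b of the peripheral stalk. Its level was 9.74, 9.72, 9.46 and 9.48 in DN3, 10.48, 10.31, 10.58 and 10.46 in ITNK, and 10.35, 10.21, 10.36 and 10.58 in LAK. No DN3 array reached an ITNK or LAK array. The rise was 0.86 in ITNK against DN3 (SE 0.11, adjusted p = 1.89e-05 by limma, 1.06e-06 to 0.000707 over the alternatives) and 0.78 in LAK against DN3 (adjusted p = 2.86e-05). A second probe detected on all arrays gave 0.78 and 0.84. A dimmer probe detected on 5 arrays gave 0.62 and 0.23, and another detected on 4 gave 0.26 and 0.42. Of these, 0.23 and 0.26 did not pass.

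Atp5k, subunit e of the membrane part, was not detected on any DN3 array, so its DN3 mean of 4.69 is no measured amount. With that mean taken as it stands, it was 0.75 higher in ITNK than in DN3 (adjusted p = 0.0011 by limma). The difference ran from 0.29 to 0.84 over the alternatives. Its probe was kept through the ITNK and LAK arrays, so this difference was partly set by the filter. Atp5c1, the gamma subunit of the central stalk, fell by 0.37 in ITNK against DN3 (adjusted p = 0.00698 by limma) and by 0.41 in LAK against DN3 (0.00255). Both calls were lost under median scaling, at -0.02 and -0.01, and with the slide as a block, at -0.26 and -0.20. Atp5j2, subunit f, fell by 0.49 in LAK against DN3 (adjusted p = 0.000159 by limma, up to 0.223 over the alternatives) and was 0.34 higher in ITNK than in LAK (0.0063, up to 0.116). Both calls were lost under median scaling (-0.14 and 0.22).

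Atp5d, the delta subunit of the central stalk, had levels of 9.74, 9.92, 9.84 and 9.93 in DN3 and 10.44, 10.48, 10.57 and 10.51 in LAK. On the ITNK arrays it was 10.23 and 10.28 on slide 1 and 9.78 and 9.88 on slide 2. The slide 2 ITNK arrays overlapped DN3, and the slide 1 arrays lay between DN3 and LAK. It rose by 0.64 in LAK against DN3 (adjusted p = 0.000263 by limma, up to 0.235 over the alternatives) and was 0.46 lower in ITNK than in LAK (0.00735, up to 0.169), and both calls were lost with the slide as a block (0.22 and -0.25). Over the 63 members, the ITNK arrays of the slides did not overlap for 32 (50.8%), beside 40.9% of all genes. With a difference of at least 0.3 as well, these were 7 (11.1%), beside 17.5%.

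Among complex I genes, Ndufb7 rose from 7.43, 7.39, 7.54 and 7.56 in DN3 to 8.34, 8.24, 7.91 and 8.04 in ITNK, and was 8.20, 8.20, 8.04 and 8.08 in LAK. It encodes a subunit of the membrane arm. The DN3 arrays lay below all others. The difference was 0.65 against DN3 in both ITNK (SE 0.11, adjusted p = 0.000159 by limma, 8.85e-05 to 0.00775 over the alternatives) and LAK (0.000111), though the LAK call was lost with the slide as a block (0.34, adjusted p = 0.0903, 4.97e-05 to 0.0903 over the alternatives). The 250 bases before its start, at chr8:83566508-83566757 on the plus strand of GRCm38.p6 (RefSeq), held the ETS letters, shown in capitals, at positions -20 to -14.
Ndufb7: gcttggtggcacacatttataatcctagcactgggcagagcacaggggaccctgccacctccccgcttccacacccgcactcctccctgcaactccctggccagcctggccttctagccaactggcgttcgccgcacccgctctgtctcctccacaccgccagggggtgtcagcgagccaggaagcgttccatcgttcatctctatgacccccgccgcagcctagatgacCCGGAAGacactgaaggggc

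Ndufa2, an accessory subunit, was 11.45, 11.42, 11.48 and 11.41 in DN3, 11.72, 11.76, 11.76 and 11.80 in ITNK, and 11.74, 11.80, 11.92 and 11.79 in LAK. The DN3 arrays lay below all others by a small step. The rise of 0.32 in ITNK passed under every alternative (adjusted p = 0.00449 by limma, 0.000368 to 0.0253). Ndufs3, a core subunit, rose by 0.48 in LAK against DN3 (adjusted p = 0.0006 by limma, up to 0.147 over the alternatives), a call lost with the slide as a block (0.29).

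Ndufv2, a core subunit of the NADH-oxidizing module, was 11.13, 11.12, 10.98 and 11.12 in DN3, 10.85, 10.63, 10.83 and 10.62 in ITNK, and 10.73, 10.57, 10.51 and 10.53 in LAK. All ITNK and LAK arrays lay below DN3. It fell by 0.35 in ITNK (adjusted p = 0.00689 by limma, up to 0.304 over the alternatives) and by 0.50 in LAK (0.000419, up to 0.0256), and the ITNK call was lost under median scaling (-0.13). Ndufs6, an accessory subunit, fell by 0.48 in ITNK (adjusted p = 0.0014 by limma) and by 0.68 in LAK (5.64e-05), but its dimmer probe went the other way, by 0.21 and 0.28, and the mean of both probes passed in neither comparison (-0.14 and -0.20). It was the 1 member, of 19 with more than 1 kept probe, whose probes were called in opposite directions. Ndufs7, a core iron-sulfur subunit, was 0.31 lower in ITNK than in LAK (adjusted p = 0.0243 by limma), a call lost without LAK 1, ITNK 3 or ITNK 4 (0.0601 to 0.07) and with the slide as a block (-0.17). Ndufa4 was 0.35 higher in ITNK than in LAK (adjusted p = 0.0163 by limma, up to 0.0702) and fell by 0.28 in LAK against DN3 (0.0305). The latter call was lost without LAK 2, LAK 3 or DN3 1 (0.0703 to 0.0954) and with the slide as a block (-0.37), and the difference turned to 0.07 under median scaling.

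For complex II, Sdhb, the iron-sulfur subunit of succinate dehydrogenase, was 8.01, 8.25, 8.03 and 8.31 in DN3, 8.97, 8.55, 8.83 and 8.33 in ITNK, and 9.13, 8.95, 8.87 and 9.02 in LAK. DN3 lay below both other groups, with ITNK 4 just above the highest DN3 array. It rose by 0.52 in ITNK (SE 0.14, adjusted p = 0.00541 by limma, 0.00123 to 0.065 over the alternatives) and by 0.84 in LAK (9.85e-05, up to 0.0374). A second probe gave 0.62 and 0.96, and a dimmer one detected on 8 arrays gave -0.07 and -0.01. The ITNK call was lost with the slide as a block (0.43). Sdhc, a membrane anchor, rose by 0.28 in LAK (adjusted p = 0.0262 by limma), a call lost without LAK 1, LAK 4, DN3 2 or DN3 3 (0.0575 to 0.0781) and with the slide as a block (0.19). Sdha and Sdhd were detected on no array, which does not show that their RNA was absent.

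For complex III, Uqcrc2, a core subunit, was 11.01, 11.11, 11.14 and 11.10 in DN3, 10.78, 10.75, 10.71 and 10.66 in ITNK, and 10.94, 10.90, 10.97 and 10.95 in LAK. All ITNK arrays lay below the others, though the difference from LAK did not pass the test. Relative to DN3, Uqcrc2 in ITNK fell by 0.36 (SE 0.08, adjusted p = 0.0017 by limma, up to 0.158 over the alternatives), and the call was lost under median scaling (-0.15). Uqcrc1, the other core subunit, fell by 0.27 (adjusted p = 0.0494 by limma), a call lost without any one of LAK 2, LAK 4, ITNK 2, ITNK 3, ITNK 4 or the 4 DN3 arrays (0.0505 to 0.123). In LAK against DN3 it fell by 0.31 (0.0235), lost without LAK 2, LAK 3 or DN3 1 (0.0525 to 0.0711). With the slide as a block both Uqcrc1 calls were lost (-0.29 and -0.34), as they were under median scaling (-0.08 and -0.13). The ITNK call was also lost with the replicate block (-0.27) and without the filter on dim probes (-0.27). Uqcr11, a small subunit, fell by 0.43 in LAK against DN3 (adjusted p = 0.000358 by limma, up to 0.568 over the alternatives, with -0.06 under median scaling). It was 0.27 higher in ITNK than in LAK (adjusted p = 0.019 by limma, up to 0.0808 over the alternatives). The latter call was lost without ITNK 1 (0.0533), under median scaling (0.22) and within slide 1 (0.32). Uqcr10 was 0.30 higher in ITNK than in LAK (adjusted p = 0.049 by limma), lost without any of LAK 2, 3 or 4, ITNK 3 or 4, or DN3 1, 2 or 4 (0.0561 to 0.137). That call was also lost with the slide block (0.17), within slide 1 (0.17), with the replicate block (0.30), under median scaling (0.18) and without the filter on dim probes (0.30).

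**Figure D4:**
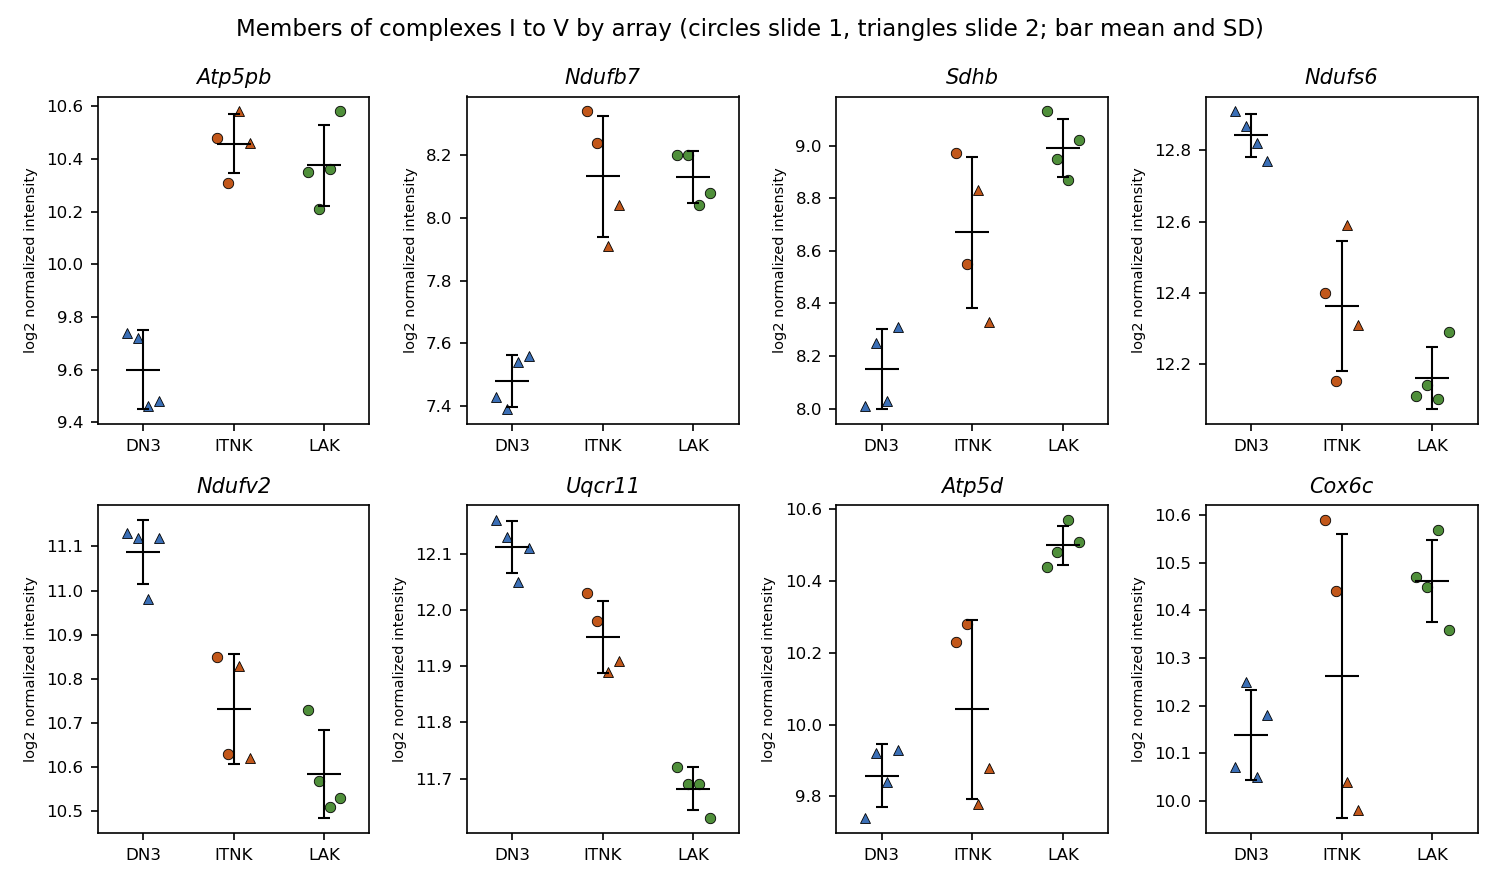
Log2 normalized intensity (vertical axis) of named members outside the isoform pairs on each array, by group. Atp5pb and Ndufb7 are lower on the 4 DN3 arrays than on all others (9.46 to 9.74 and 7.39 to 7.56).

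The members that passed in every alternative that gave them a value were 6 of 18 in ITNK against DN3 (Atp5k, Atp5pb, Cox6a2, Cox7a1, Ndufa2 and Ndufb7) and 6 of 22 in LAK against DN3 (Atp5pb, Cox6a2, Cox7a1, Ndufa2, Ndufv2 and Sdhb). Atp5k and Cox6a2 were not kept where detection on all 12 arrays was required and have no value there. The filter bears on Atp5k as given above.

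**Figure D5:**
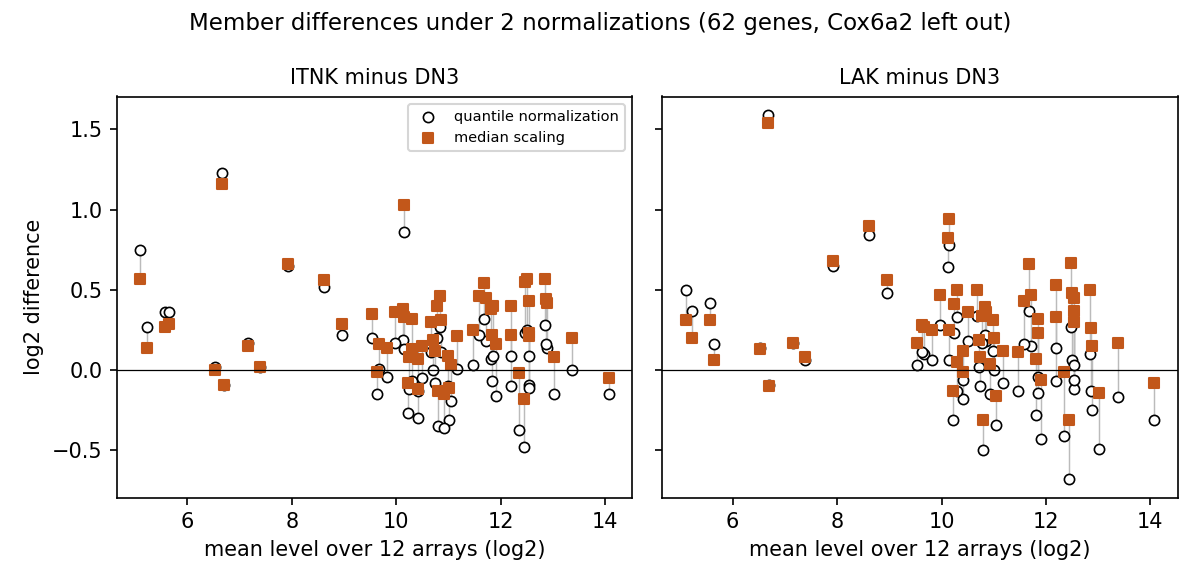
Log2 difference of each member (vertical axis) against its mean level over the 12 arrays (horizontal axis, log2) under quantile normalization and median scaling, for 62 members without Cox6a2. Under median scaling the medians over all 63 members moved from 0.03 to 0.22 in ITNK against DN3 and from 0.06 to 0.26 in LAK against DN3.

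Other genes of mitochondrial respiration were taken from lists of related function. Of 36 measured assembly factors, 12 were higher in ITNK than in DN3 and 24 did not pass, with a median of 0.16. Of all genes in that comparison, 23.5% were higher and 28.2% lower. Pet100, which takes part in complex IV assembly, rose by 0.86 in ITNK (adjusted p = 2.68e-05 by limma) and by 0.96 in LAK, and Tmem126b, a complex I assembly factor, by 0.66 and 1.07. Against LAK, 6 of the 36 were lower in ITNK and 30 did not pass, beside 15.7% of all genes lower. Among the 6 was Sdhaf3, a complex II assembly factor, lower by 0.70 (adjusted p = 0.000174 by limma). In LAK against DN3, 21 were higher and 1 lower, where 28.6% and 31.9% of all genes were called. With the slide as a block 12 were higher in that pair and 24 did not pass, beside 19.8% of all genes higher. The median of the factors was then 0.33 in place of 0.34.

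Of 14 citric acid cycle and pyruvate dehydrogenase genes, 4 were higher and 3 lower in ITNK than in DN3, beside 23.5% and 28.2% of all genes. Idh2, mitochondrial isocitrate dehydrogenase, averaged 6.61 in DN3 and 5.64 in ITNK, and was not detected on any LAK array. Its LAK minus DN3 difference was -1.93, which takes the undetected LAK level as it stands. Pdha1, a subunit of pyruvate dehydrogenase, fell by 0.74 in ITNK (adjusted p = 5.14e-05 by limma) and by 0.82 in LAK, whereas Mdh2, malate dehydrogenase, rose by 0.51 and 0.89, calls that were lost with the slide as a block (0.30 and 0.46).

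Of 21 genes of mitochondrial biogenesis, 4 were higher and 8 lower in ITNK than in DN3, beside 23.5% and 28.2% of all genes. Ppargc1b, a coactivator of respiratory genes, averaged 8.15 in DN3, 6.32 in ITNK and 6.72 in LAK. It fell by 1.83 in ITNK (SE 0.15, adjusted p = 3.27e-07 by limma) and by 1.42 in LAK. Nrf1, the factor whose motif was searched, fell by 0.76 in ITNK and by 1.12 in LAK. Polrmt, the mitochondrial RNA polymerase, fell by 0.73 and 0.78, while Tfb2m, its partner in initiation, rose by 0.63 in ITNK. Gabpa, an ETS factor, rose by 0.43 in ITNK (adjusted p = 0.00357 by limma) and by 0.75 in LAK. It was detected on no DN3 array, so its DN3 level is no measured amount and the filter partly set these differences.

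Of 16 import genes, 7 were higher and 2 lower in ITNK than in DN3, beside 23.5% and 28.2% of all genes. Timm10 had a difference of 0.84 and Tomm34 of -0.46. Of 7 genes of mitochondrial oxidant handling and uncoupling, 4 were higher and 3 did not pass, beside 23.5% of all genes higher. Txnrd2, a thioredoxin reductase, was higher by 0.83 in ITNK (adjusted p = 6.09e-06 by limma) and by 1.42 in LAK. Of 8 measured carriers and related genes of the chain, 2 were higher and 6 did not pass, beside 23.5% of all genes higher. Cycs, cytochrome c, rose by 0.61 and Etfb, a subunit of the electron transfer flavoprotein, by 0.66. Among 18 cell cycle genes, 5 were lower in ITNK than in DN3, where 28.2% of all genes were lower. With the slide as a block 1 was lower, beside 23.7% of all genes.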

How the data were processed

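RNA of 12 samples was measured on Illumina mouse bead arrays. The authors deposited, per the file headers, a linear mean intensity of the beads of each probe, not normalized, and a detection value, a fraction from 0 to 1. They also deposited processed values on a log2 scale, whose method is not given in the sources used here and which were an alternative setting. The intensities were corrected for background with a normal-exponential fit using the detection values, 16 was added and arrays were quantile normalized (neqc, limma 3.58.1, R 4.3.3). Of 45281 probes 7 held no values. Kept were 13571 probes with a detection value above 0.99 on at least 4 arrays, and a gene was read from its brightest kept probe. One limma fit over the 3 groups tested 8100 genes with Benjamini-Hochberg adjustment. Probes of one gene were adjusted over all kept probes. The number of arrays limits the precision.

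Groups came from sample titles, and slides from the numbers in them. The members and lists were chosen with earlier results of these data known. Named genes were members past the threshold with at least a 2-fold difference, up to 2 per complex and direction in each comparison, the isoform pairs, the 5 genes most like Cox6a2 and up to 2 per direction from each list. Polrmt was named outside this rule, beside Tfb2m. Alternatives were other background corrections, median scaling, the authors' values, other probe filters and summaries, slide and replicate blocks, fits within a slide and leaving out each array. The fit was tested on simulated data. Promoter windows came from RefSeq (GRCm38.p6), matched for 54 of 63 members.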

Additional observations from a re-analysis of the deposited data

Results flagged for a closer look

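Among 75 sets of 4 arrays checked, 5 held an array far from the other arrays of its group by Dixon's test at the 95% level, a level at which chance alone gives some such cases. Cox6b1 was 12.49 in DN3 2, beside 12.35 to 12.37 on the other DN3 arrays. Cox7a2l was 10.48 in LAK 3, beside 10.37 to 10.39. Ndufa4 was 12.03 in DN3 1, beside 11.81 to 11.84. Ndufs3 was 8.63 in DN3 3, beside 8.75 to 8.76, and Ndufv2 was 10.98 in DN3 3, beside 11.12 to 11.13.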

How the results depend on the processing

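Of the counts and medians over the 63 members under the alternatives, 165 values stayed close to the reported ones, 29 moved and 1 reversed. For the gene and comparison pairs reported here, 935 values kept direction and side of the threshold, 100 lost the call, 14 gained one and 5 reversed. The causes were not tested. In ITNK against DN3, median scaling gave 27 higher and 1 lower, beside 24.3% and 26.7% of all genes, and a median of 0.22. The authors' values gave 16 higher, beside 24.8%, and a median of 0.09. The mean of probes gave a median of 0.09. In ITNK against LAK, the count of higher members was 1 with median scaling, 3 with the slide block and 0 within slide 1. Of all genes, 17.8%, 14.7% and 12.6% were higher in these settings. The count of lower members was 9 without background correction, beside 16.1% of all genes, and 7 with background fitted to all probes, beside 15.8%. It was 4 with median scaling, beside 15.5%. With probes kept if detected on all 12 arrays it was 5 of 59, beside 14.8%, and with no filter 5 of 76, beside 6.83%. It was 8 with the authors' values, beside 13.6%, and 6 with the mean of probes, beside 16.7%. With the slide block it was 1, beside 13%, and within slide 1 it was 0, beside 10.4%. On leaving out an array it was 1 to 5, beside 12.8% to 15.9%. In LAK against DN3, median scaling gave 27 higher and 3 lower, beside 29.2% and 30.3% of all genes, and a median of 0.26. The authors' values gave 19 higher, beside 28.8%, and the mean of probes a median of 0.10. The slide block gave 4 higher and 6 lower, beside 19.8% and 21.2%, and a median of -0.06. Among those pairs these reversed: Cox7a2l in ITNK against LAK to 0.02 with the slide block and within slide 1, and, in LAK against DN3, Cox6a1 to 0.15 and Ndufa4 to 0.07 with median scaling and Cox6c to -0.18 with the slide block. Over all members and comparisons, 79 of 189 pairs changed sign under at least 1 alternative, and 2 of these had passed (Cox6c and Ndufa4 in LAK against DN3).

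Deviations of same-numbered arrays correlated at -0.34 to 0.21. Between ITNK and DN3, replicates 1 and 2 correlated best with their own number (0.18 and 0.21, beside at most 0.13 for other numbers). Replicates 3 and 4 did not. In the other comparisons only replicate 3 of LAK against DN3 did so (0.10). With 4 arrays per group, these values cannot tell whether same-numbered arrays were paired. With the replicate block, 8 members were higher and 7 lower in ITNK against DN3, beside 22.6% and 27% of all genes. In ITNK against LAK these were 5 and 2, beside 16.9% and 14.7%. In LAK against DN3 they were 13 and 10, beside 27.9% and 31%. Cox6a2 in ITNK against LAK passed under that block (adjusted p = 0.046 by limma, 0.0375 to 0.283 over the alternatives).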
